A study of Mus musculus with 2 samples.

Results

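A set of 10 imprinted mouse genes was followed in Sox1-GFP+ cells sorted from tail and brain: H19, Igf2, Dlk1, Meg3, Peg3, Cdkn1c, Grb10, Plagl1, Mest and Ndn. They were taken from a list of imprinted genes with roles in growth, and chosen by their summed molecules in the tail library against the brain library, above all those of H19, so that contrast describes these genes and is no evidence about them. The 10 genes stand among 19392 genes counted in the series, all 10 were found in the tail, 9 were found in the brain, and all 10 had at least 50 molecules over both libraries. The cells came from mice with a GFP reporter knocked into Sox1, a gene of early neuroepithelium, and they were dissociated with trypsin, sorted by flow cytometry for GFP and captured with the BD Rhapsody system, which counts molecules from the 3′ end of polyadenylated RNA. The tail group held 1 library of postnatal tail cells and the brain group held 1 library of adult brain cells, with genotype Sox1-GFP+ in both. Tissue, age, library and the animals used cannot be told apart, and a sort on a reporter keeps any cell type that carries GFP, whether or not it is neural. With 1 library per group there was no replicate, so no test was made between groups, and every interval below is a 95% interval that covers counting error only.

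Imprinted genes are expressed mainly from the copy inherited from 1 parent. H19 encodes a non-coding RNA expressed from the maternal copy, and its neighbour Igf2 encodes a fetal growth factor expressed from the paternal copy, with the switch between them held by an insulator that lies upstream of H19. Dlk1, which encodes a membrane ligand related to those of the Notch pathway, and Meg3, a maternally expressed non-coding RNA, form another such pair. Cdkn1c encodes an inhibitor of cyclin-dependent kinases and Grb10 an adaptor that dampens insulin and IGF receptor signalling, and both restrain growth. Plagl1 encodes a zinc finger transcription factor known to act on other imprinted genes, Peg3 another zinc finger protein, Mest a protein of the hydrolase fold family that is named for mesoderm, and Ndn a MAGE family protein known from neurons. The assay counts RNA and does not read parental alleles, so imprinting itself was not measured.

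On the GRCm38 assembly, in GENCODE vM21, H19 lies on the minus strand of chromosome 7 from 142575529 to 142578143 and Igf2 on the same strand from 142650766 to 142666816, with 72.6 kb between them. Cdkn1c lies on the same chromosome from 143458339 to 143461050, Peg3 from 6703892 to 6730431 and Ndn from 62346569 to 62350262. Dlk1 lies on chromosome 12 from 109452823 to 109463336 and Meg3 from 109541001 to 109571726, with 77.7 kb between them. Grb10 lies on chromosome 11 from 11930508 to 12038683, Plagl1 on chromosome 10 from 13060504 to 13131694 and Mest on chromosome 6 from 30723547 to 30748465. H19 also carries a microRNA gene, Mir675, which lies within an exon of H19 on the same strand (chromosome 7, 142577064 to 142577147). Its mature products are shown because H19 was the most abundant of the 10 genes, with the seed, bases 2 to 8, in capitals. The sequences are those of RefSeq on GRCm38.p6, at chr7:142577112-142577133 and chr7:142577078-142577099, and the assay did not count these microRNAs.
mmu-miR-675-5p: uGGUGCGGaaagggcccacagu
mmu-miR-675-3p: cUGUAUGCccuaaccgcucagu

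Promoter windows of 300 bases (250 before and 50 after the start) in RefSeq were given for 8 of the 10 genes, as 15 windows. Windows of 4 genes are shown, picked from the 8 with their highest tail levels in the Col1a1-marked cells described below. Igf2, Grb10 and Mest, also among those 8, had windows that are not shown. Both strands were searched for GGGGCC, the core of the GC-rich element that the Plagl1 protein is known to bind, and for TATAAA. Matches are in capitals. The Plagl1 window is chr10:13090582-13090881 on the plus strand, at a start inside the annotated gene. The Dlk1 window is chr12:109452573-109452872 and the Meg3 window chr12:109540746-109541045, both on the plus strand, and the Peg3 window is chr7:6730370-6730669 on the minus strand, each running into the first exon.
Plagl1: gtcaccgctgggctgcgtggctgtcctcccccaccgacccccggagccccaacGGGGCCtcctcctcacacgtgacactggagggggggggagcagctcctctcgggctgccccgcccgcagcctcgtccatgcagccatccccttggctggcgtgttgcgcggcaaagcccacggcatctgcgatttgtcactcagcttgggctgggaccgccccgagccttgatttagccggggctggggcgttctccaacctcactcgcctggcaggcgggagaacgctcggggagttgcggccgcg
Dlk1: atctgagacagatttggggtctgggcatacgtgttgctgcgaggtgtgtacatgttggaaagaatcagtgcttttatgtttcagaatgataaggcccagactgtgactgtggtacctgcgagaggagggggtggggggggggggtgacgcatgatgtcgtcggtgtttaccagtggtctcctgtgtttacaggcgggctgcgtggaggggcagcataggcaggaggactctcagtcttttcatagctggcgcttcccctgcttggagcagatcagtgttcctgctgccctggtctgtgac
Meg3: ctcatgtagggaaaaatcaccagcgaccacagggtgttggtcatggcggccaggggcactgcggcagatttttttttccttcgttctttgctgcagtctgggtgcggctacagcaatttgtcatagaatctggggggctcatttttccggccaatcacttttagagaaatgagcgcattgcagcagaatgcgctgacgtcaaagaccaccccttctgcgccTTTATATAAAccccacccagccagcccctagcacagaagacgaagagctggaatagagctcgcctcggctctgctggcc
Peg3: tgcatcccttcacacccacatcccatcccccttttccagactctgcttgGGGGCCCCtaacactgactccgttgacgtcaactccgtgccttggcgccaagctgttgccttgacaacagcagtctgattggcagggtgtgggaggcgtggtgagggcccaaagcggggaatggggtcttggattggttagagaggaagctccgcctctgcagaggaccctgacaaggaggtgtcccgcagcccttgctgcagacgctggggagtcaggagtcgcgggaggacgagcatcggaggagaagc

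GGGGCC was found in 8 of the 15 windows (of Igf2, Peg3, Grb10, Plagl1 and Mest) and in 24.97% of 32851 windows of all genes. The palindrome GGGGCCCC, in which matches on the opposite strands overlap, was found in the Peg3 window alone of the 15 and in 1.08% of all windows. TATAAA was found in the Meg3 window alone of the 15 and in 13.6% of all windows, with its overlapping matches beginning 29 and 25 bases before the start. The Dlk1 window held neither set of letters. The Plagl1 window held 26 CG dinucleotides against a median of 7 over all windows, and the Dlk1, Meg3 and Peg3 windows held 9, 13 and 13. A match describes these letters in this window and is not a bound site.

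The tail library kept 1964 of 2469 barcodes and 2817103 molecules, and the brain library 7988 of 12111 barcodes and 6424466 molecules. Cells of the tail were deeper, with a median of 1282.5 molecules per cell against 696. There were 18 barcodes shared by kept cells of both libraries, which is 0.916% of tail and 0.225% of brain cells, and without them H19 was at 12271 CPM (molecules of the gene per 1000000 molecules) for tail and 7.34 CPM for brain. Cells were marked by at least 2 molecules of Col1a1, Krt5, Igfbp5, Tmem212, Stmn2 or Slc1a3, and a cell could carry several marks. The other markers of a fibroblast list were at least 2-fold higher in Col1a1-marked tail cells for 6 of 6 genes, those of a keratinocyte list in Krt5-marked tail cells for 5 of 7 and those of immature neurons in Stmn2-marked tail cells for 5 of 5. Igfbp5-marked tail cells carried 4 of 7 ependymoglial markers. The names were not borne out for Slc1a3-marked tail cells, which carried 2 of 6 other astroglial markers and of which 387 of 408 also had the Igfbp5 mark, nor for Igfbp5-marked brain cells, which carried 0 of 7 ependymoglial markers. All groups are called by their marker below.

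H19 was the most abundant non-mitochondrial RNA of the tail cells and was close to absent from the brain cells. The tail library had 34717 molecules of it, or 12324 CPM (12194 to 12454), against 47 molecules, or 7.32 CPM (5.38 to 9.73), for the brain library. The tail level was 1685 times the brain level (interval 1266 to 2293), and H19 ranked 1 among non-mitochondrial genes in the tail and 9920 in the brain. It alone held 81.6% of the tail molecules of the 10 genes. A molecule of H19 was counted in 60.3% of tail cells and in 0.163% of brain cells, or in 52.6% and 0.0413% after each cell was thinned to 400 molecules. In cells marked as macrophages or microglia, which should lack it, H19 was found in 1 of 5 tail cells (median depth 1502 molecules) and in 0 of 42 brain cells (median depth 631.5), and 0 of 42 allows a share of up to 7.14%.

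Igf2, the growth factor gene next to H19, followed the same direction at a far lower level. The tail library had 120 molecules of it, or 42.6 CPM (35.3 to 50.9), and the brain library had 0, so the tail level was at least 91.2-fold higher, with 3 molecules over the brain library as the floor. The tail held 289 molecules of H19 for each molecule of Igf2 (242 to 349). Igf2 was counted in 98 tail cells, of which 80 had 1 molecule and none had more than 3, and 96 of the 98 also had H19. These Igf2 levels are uncertain, because 99.7% of the last 1000 exonic bases of Igf2 are shared on the same strand with Gm49394, a protein-coding gene model that the files do not name. That overlap is read from GENCODE vM21, the files were made with vM19, which was not used here, and so whether that gene model was among those counted is unknown. Among protein-coding genes with at least 80% of those bases shared, 106 of 344 (30.8%) were named in the files, against 16569 of 21315 (77.7%) with none shared. Any gene model of vM21 that vM19 lacks could not be named in the files. These shares therefore do not tell how shared bases were counted. How reads that match 2 genes were counted is not given in the sources used here.

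The other imprinted pair was split. Dlk1 had 1745 tail molecules (619 CPM, 591 to 649) and 38 brain molecules (5.91 CPM, 4.19 to 8.12), a ratio of 105 (76.0 to 148). Its neighbour Meg3 had 1330 and 1431 molecules, or 472 CPM and 223 CPM, a ratio of 2.12 (1.97 to 2.29). Meg3 was therefore the gene among the 10 with the highest level in the brain, whereas Dlk1 was close to absent there.

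The restrainers of growth were higher in the tail. Cdkn1c had 1319 tail and 90 brain molecules, or 468 and 14.0 CPM, a ratio of 33.4 (27.0 to 41.9). Grb10 had 741 and 50 molecules, or 263 and 7.78 CPM, a ratio of 33.8 (25.4 to 46.0). The intervals of these ratios overlap over most of their length.

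Among the remaining genes Peg3 and Ndn differed less between the libraries than Mest and Plagl1 did. Mest had 571 and 80 molecules (203 and 12.5 CPM), a ratio of 16.3 (12.9 to 20.8), and Plagl1 had 443 and 120 molecules (157 and 18.7 CPM), a ratio of 8.42 (6.87 to 10.4). Ndn had 790 and 532 molecules (280 and 82.8 CPM), a ratio of 3.39 (3.03 to 3.79). Peg3 had 772 and 757 molecules (274 and 118 CPM), a ratio of 2.33 (2.10 to 2.57). The last bases of Mest lie opposite Copg2 for 91.2% of 1000 bases, and Copg2 had 118 tail and 130 brain molecules. In the tail the order from highest to lowest was H19, Dlk1, Meg3, Cdkn1c, Ndn, Peg3, Grb10, Mest, Plagl1 and Igf2, and within it Meg3 and Cdkn1c, and Ndn, Peg3 and Grb10, did not differ beyond counting error. CPM from a 3′ assay counts molecules and was not divided by gene length.

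**Figure D1:**
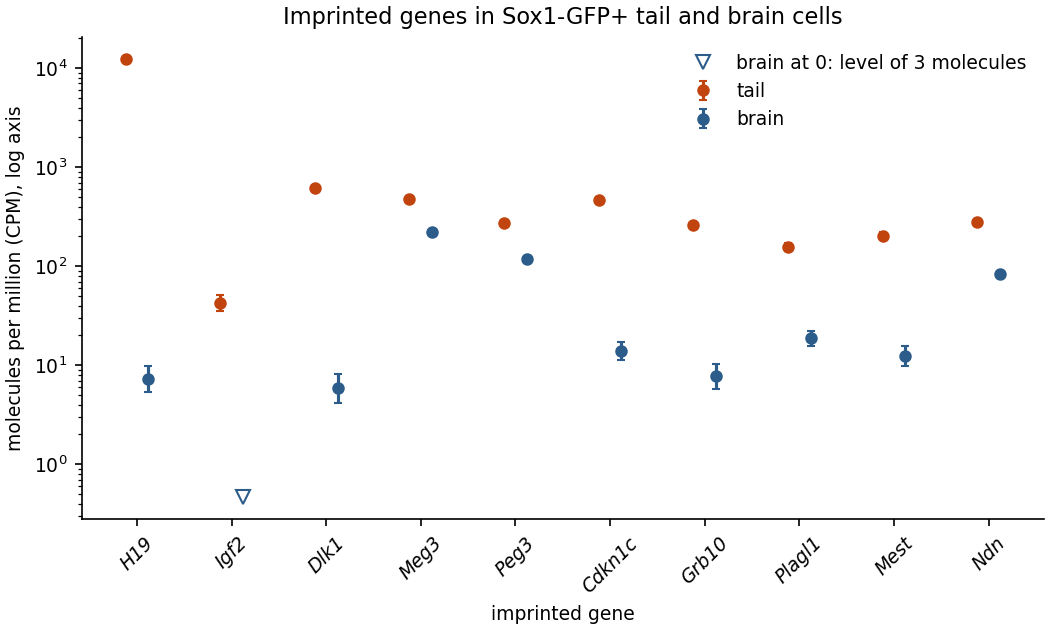
Levels of the 10 imprinted genes in CPM (log axis) in the tail library (orange) and the brain library (blue), with bars for the 95% counting interval and an open triangle for the level of 3 molecules where the brain count was 0. Every tail point lies above its brain point, by 1685 times for H19 and by 2.12 times for Meg3.

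A gene was called when it had at least 50 molecules over both sides and the whole interval of its ratio lay beyond 4-fold. In tail against brain, 7 of the 10 genes were called higher in the tail, all but Meg3, Peg3 and Ndn, beside 6.35% of 11347 genes, and 0 were called higher in the brain, beside 4.66%. These counts follow from how the genes were chosen. The median log2 ratio was 4.02 over the 9 genes found in both libraries and 0.28 over all genes tested. All 10 genes together took 1.51% of tail molecules and 0.0490% of brain molecules, and without H19 the other 9 summed to 2780 CPM and 482 CPM. Scaling by TMM moved all log2 ratios by -0.39, and each gene stayed higher in the tail.

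Within the tail the genes did not share 1 cell group. By level, H19 was highest in Igfbp5-marked cells, Ndn in Stmn2-marked cells and the other 8 in Col1a1-marked cells. The intervals of the 2 highest groups overlapped for H19 (Igfbp5-marked and Slc1a3-marked), Igf2 (69.4 CPM in Col1a1-marked and 65.5 CPM in Igfbp5-marked) and Meg3 (1752 CPM in Col1a1-marked and 1511 CPM in Stmn2-marked). In cells with 1 mark alone the order turned for Igf2, at 30.8 CPM in Col1a1-marked and 60.4 CPM in Igfbp5-marked cells. H19 was at 18579 CPM in Igfbp5-marked, 18038 CPM in Slc1a3-marked, 11146 CPM in Col1a1-marked, 3965 CPM in Krt5-marked, 1872 CPM in Tmem212-marked, 955 CPM in Stmn2-marked and 1296 CPM in unmarked tail cells. Igfbp5-marked cells, 1260 of the 1964, held 89.1% of H19 molecules and 59.1% of all molecules. Barcodes that failed the cell filters held H19 at 1736 CPM, 0.141 times the level of kept cells.

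Among the 10 genes Dlk1 had the largest share of its molecules in the fibroblast-marked group. Its level was 4074 CPM in Col1a1-marked cells, 492 CPM in Igfbp5-marked, 188 CPM in Stmn2-marked and 3.48 CPM in Slc1a3-marked tail cells, and 0 molecules were counted in Krt5-marked and Tmem212-marked tail cells. Col1a1-marked cells were 9.01% of tail cells and held 94.2% of Dlk1 molecules. They held 73.6% of Plagl1, 73.0% of Mest, 63.9% of Cdkn1c and 53.2% of Meg3 molecules, beside 14.3% of all molecules. Their share was lower for Grb10 (35.9%), Peg3 (33.8%), Igf2 (23.3%), Ndn (17.0%) and H19 (12.96%).

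Cells with the Col1a1 mark alone of the pair (109 cells) were compared with cells with the Igfbp5 mark alone of the pair (1192 cells). Called higher in the Col1a1-marked cells were Dlk1, 3634 against 17.4 CPM (ratio 209, 142 to 322), Meg3, 1853 against 51.5 CPM (ratio 36.0, 28.2 to 46.5), and Mest, 1089 against 43.5 CPM (ratio 25.1, 19.01 to 33.4). Plagl1 followed at 696 against 30.8 CPM (ratio 22.6, 16.2 to 32.1) and Cdkn1c at 1956 against 178 CPM (ratio 11.0, 9.43 to 12.8). So 5 of the 10 genes were called higher, beside 2.16% of 5963 genes, and 0 were called lower, beside 3.71%. H19 went the other way by a smaller factor, at 10073 against 19253 CPM, or 1.91-fold lower (1.83 to 1.99). Grb10 was 3.16 times (2.60 to 3.84) and Peg3 2.02 times (1.63 to 2.48) as high in Col1a1-marked cells, and the intervals for Ndn (0.851 to 1.46) and Igf2 (0.326 to 1.35) contained equality. The median log2 ratio was 2.56 over the 10 genes and -0.27 over all genes tested.

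In keratinocyte-marked cells H19 was counted, and little else of this set. Krt5-marked tail cells without the Igfbp5 mark (77 cells) had 521 molecules of H19 (3058 CPM), 26 of Peg3, 16 of Cdkn1c, 7 of Grb10, 6 of Ndn, 4 of Plagl1 and 1 of Mest, and 0 of Igf2, Dlk1 and Meg3. Tail barcodes that failed the filters had H19 at 1736 CPM. Over all 81 Krt5-marked tail cells, the top 10% of cells held 55.6% of the H19 molecules. The part of free RNA was not tested. Against Igfbp5-marked cells, 4 of the 10 genes were called lower (H19, Dlk1, Meg3 and Mest), beside 3.71% of 6172 genes, and 0 were called higher, beside 1.04%. Without the cells that also had the Col1a1 mark the call remained for H19 alone, at 6.30-fold lower (5.78 to 6.89), and the Igfbp5-marked level of Dlk1 was then 17.5 CPM in place of 496 CPM.

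Neuron-marked tail cells were rich in Meg3 and Ndn. Stmn2-marked cells had Meg3 at 1511 CPM, with a molecule in all but 23.9% of cells, and Ndn at 775 CPM, against 267 CPM in Slc1a3-marked cells. In cells with the Stmn2 or the Igfbp5 mark alone of the pair (60 and 1253 cells), Meg3 was called 7.58-fold higher (6.30 to 9.11) in Stmn2-marked cells, which is 1 of 10 genes beside 1.91% of 6128 genes. H19 was called 18.1-fold lower (15.1 to 21.8), 1 of 10 beside 1.68%. Without Col1a1-marked cells on either side Meg3 was 35.7 times as high (26.8 to 48.1), and H19 19.3-fold lower (16.04 to 23.4). Dlk1 turned with that choice of cells, from 3.20-fold lower (2.01 to 5.42) to 9.83 times as high (4.68 to 20.2), at 15 molecules in 58 Stmn2-marked cells and 20 in 1185 Igfbp5-marked cells. Ndn was 3.19 times as high (2.51 to 4.02) in the same cells and was not called.

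**Figure D2:**
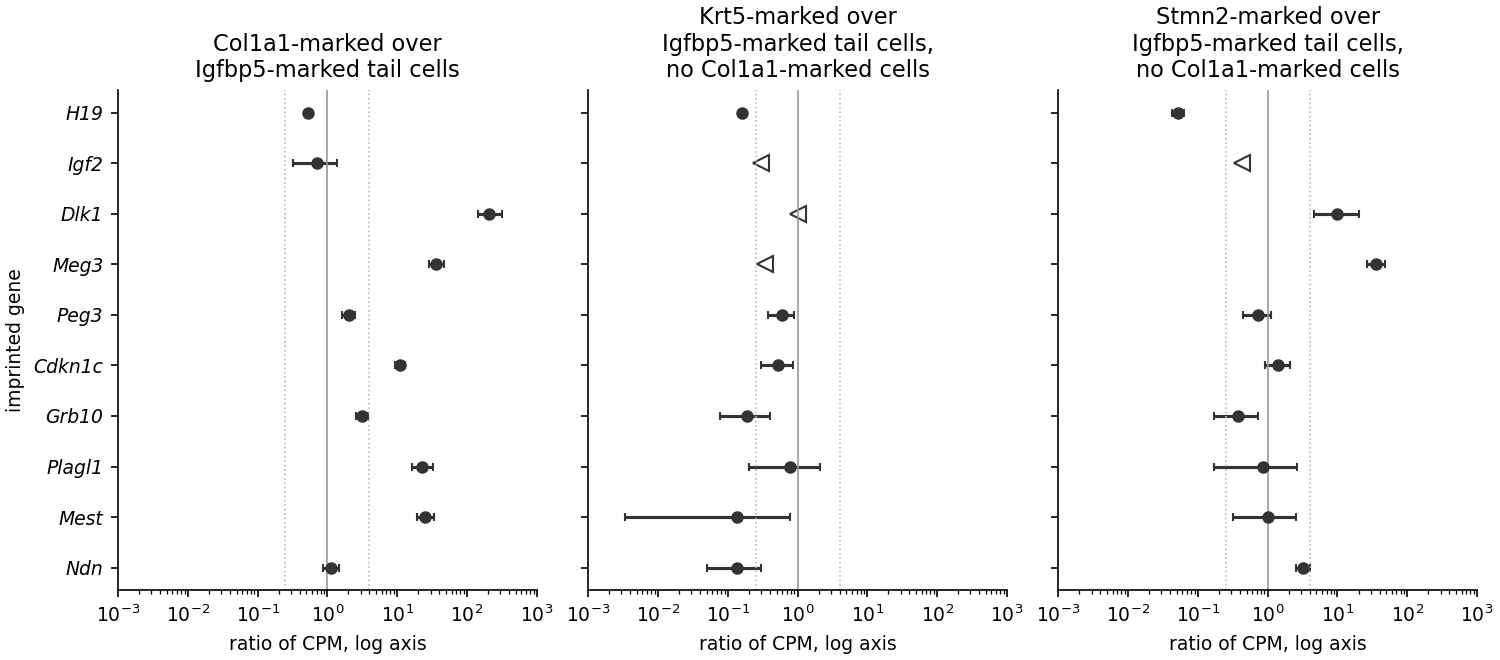
Ratio of CPM (log axis) between groups of tail cells for the 10 genes, Col1a1-marked cells being left out of the middle and right panels, with points for the ratio, bars for the 95% counting interval, open triangles for an upper limit where the first group had 0 molecules, a solid line at equality and dotted lines at 4-fold. Dlk1 (209), Meg3 (36.0), Mest (25.1) and Plagl1 (22.6) lie far to the right in the left panel, and H19 lies to the left of equality in all 3 panels.

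H19 was unevenly spread among Igfbp5-marked cells. Of the 1192 such cells without the Col1a1 mark, 27.5% had no H19 molecule, 52.9% had at least 100 molecules of H19 per 10000 and 38.8% had at least 200. Of the 177 Col1a1-marked cells 12.4% had none and 18.6% had at least 200. The share without H19 was 30.9% in Krt5-marked, 71.6% in Stmn2-marked and 79.4% in unmarked tail cells. Col1a1-marked cells were deeper, with a median of 1957 molecules against 1214.5 in all Igfbp5-marked cells, and after thinning to 400 molecules H19 was found in 71.8% and 67.7% of cells. The share with no H19 is thus not matched for depth, and most of that gap was gone in thinned cells.

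**Figure D3:**
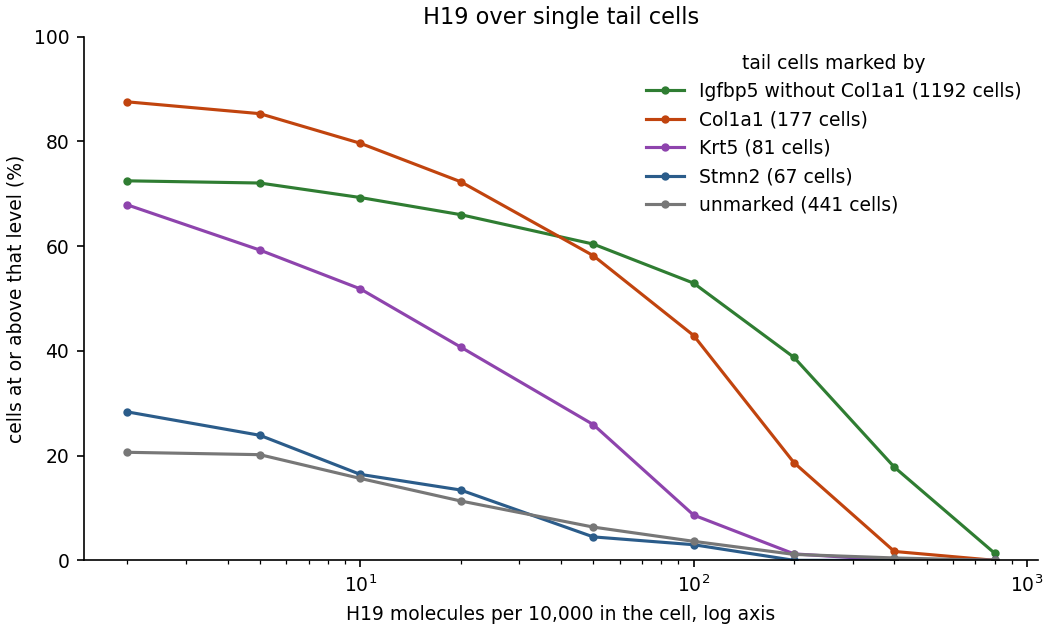
Share of tail cells (%) at or above each level of H19 in molecules per 10000 of the cell (log axis), for 5 groups of cells. The line of Igfbp5-marked cells without Col1a1 starts below that of Col1a1-marked cells, at 72.5% against 87.6%, in cells not matched for depth (71.8% of Col1a1-marked and 67.7% of all Igfbp5-marked cells had H19 after thinning), and lies above it at 200 molecules per 10000, at 38.8% against 18.6%.

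The Igfbp5-marked cells without the Col1a1 mark were then split by H19 itself, into 631 cells with at least 100 molecules per 10000 and 328 cells with none, a division made after these values were seen. Depth did not separate them, with medians of 1183 and 1155 molecules per cell, and the Slc1a3 mark was on 32.2% and 32.3% of cells. The cycling markers Mki67 and Top2a summed to 322 CPM in the H19-high and 69.8 CPM in the H19-free cells, and the part of cycling in what follows was not tested. Igf2 had 88 molecules in the H19-high and 2 in the H19-free cells, or 113 and 4.98 CPM, a ratio of 22.6 (6.09 to 190). Meg3 had 17 and 48 molecules and was 5.49-fold lower in H19-high cells (3.10 to 10.2). Peg3 (1.53-fold, 1.21 to 1.93), Grb10 (1.503-fold, 1.17 to 1.93), Cdkn1c (1.45-fold, 1.097 to 1.92) and Ndn (1.28-fold, 1.01 to 1.605) were lower there by less, and the intervals of Dlk1, Plagl1 and Mest contained equality. The median log2 ratio over all genes tested was -0.09. TMM scaling shifted the ratios of this comparison toward the H19-high cells by a factor of 1.15. That exceeds the lower bounds for Cdkn1c and Ndn, whose intervals would then contain equality. H19 and Igf2 were the 2 of 7 genes with enough molecules that were called in H19-high cells, beside 0.25% of 4394 genes, and 0 of 7 were called in H19-free cells, beside 0.706%. H19 was called by construction.

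Genes with no part in the list also differed between these cells. By the bound of the interval nearest to equality, Lsp1, a gene 80.7 kb from H19 (chromosome 7, 142460809 to 142494867), stood near the top in H19-high cells, with 780 molecules in 320 cells against 35 in 23 cells, or 1000 against 87.2 CPM (ratio 11.5, 8.18 to 16.6). Cntnap2 had 65 molecules against 0, Creb5 148 against 5, Ctgf 222 against 15 and Pclaf, a gene of DNA replication, 79 against 3. Krt14 and Krt5 were in the same group only through 1 cell each, which held 49 of 50 molecules of Krt14 and 69 of 70 of Krt5. In H19-free cells Dcx (72 against 0 molecules), Chga (60 against 0), Pkd2l1 (54 against 0) and Pdyn (74 against 1) were among the leading genes, of which Dcx is a marker of immature neurons and Pkd2l1 encodes a channel known from neurons that contact the cerebrospinal fluid. At least 2 of these 4 genes were found in 20 of the 328 H19-free cells (6.10%). The 4 genes were taken from the leaders of this same split, so the 0 of 631 H19-high cells follows from that choice. Haemoglobin also differed, through few cells, since 69 molecules of Hba-a2 were in 1 H19-free cell and 254 of 372 molecules of Hba-a1 in 1 cell.

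Across the 177 Col1a1-marked tail cells the pairs of genes varied in how closely they moved. Spearman's rho of molecules per 10000 was highest for Dlk1 with Plagl1, at 0.67, and was 0.65 for Dlk1 with Meg3, 0.63 for Cdkn1c with Plagl1, 0.61 for H19 with Cdkn1c and 0.54 for H19 with Dlk1. It was lower for Meg3 with Grb10 (0.24), Peg3 with Mest (0.22) and Meg3 with Peg3 (0.20), and lowest for Peg3 with Grb10 (0.03). These cells share a library and its free RNA, and log depth itself had rho of 0.18 with Dlk1 and H19, 0.21 with Cdkn1c and 0.29 with Plagl1. Over the Igfbp5-marked cells without the Col1a1 mark rho lay near 0 for H19 with Peg3 (-0.10), Cdkn1c (0.01), Grb10 (-0.03) and Ndn (-0.03).

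The share of mitochondrial molecules moved with several of these levels in the tail. Dlk1 was at 1618, 177 and 143 CPM in cells with under 10%, 10 to 20% and 20 to 40% mitochondrial molecules, Meg3 at 983, 237 and 279 CPM and Mest at 404, 121 and 60.3 CPM. H19 was at 10998, 12987 and 12480 CPM in the same cells. The part of this measure in the differences above was not tested.

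In the brain Meg3 was at 657 CPM (585 to 736) in Stmn2-marked and 73.6 CPM (65.6 to 82.4) in Slc1a3-marked cells, and at 497 CPM in unmarked cells. With the cells that had both marks left out, Meg3 was 9.58 times as high (8.12 to 11.3) in Stmn2-marked as in Slc1a3-marked brain cells, and 66.7 times as high (38.1 to 128) in the tail. Ndn was 3.53 times (2.69 to 4.5998) as high in the brain and 2.91 times (2.24 to 3.77) in the tail. Meg3 and Ndn thus had the same direction in both libraries. For Dlk1 no direction could be read in the brain. It had 32 of its 38 brain molecules in Slc1a3-marked cells, at 7.77 CPM, and 0 in Stmn2-marked cells. The Stmn2-marked brain cells held only 458107 molecules of all genes, against 4116318 in Slc1a3-marked cells. In the tail Dlk1 had 2 molecules in Slc1a3-marked and 24 in Stmn2-marked cells, 53.9 times as high (13.4 to 471) in the latter. Peg3 was the most even of the genes in the brain, between 93.1 and 207 CPM in all marked groups.

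Brain H19 rested on few cells. Of its 47 molecules 33 were in 2 of the 36 Col1a1-marked cells, and 28 were in 1 cell. That cell had 2312 molecules, among them 45 of Col1a1, 48 of Col1a2, 31 of Col3a1 and 7 of Dcn, and it held 9 of the 10 genes, with 7 molecules of Meg3, 6 of Plagl1, 5 of Dlk1, 4 of Cdkn1c, 4 of Mest and 0 of Igf2. It also held the only Xist of the brain library, 4 molecules in 1 of 7988 cells, while Xist, the RNA of the inactive X chromosome of female cells, was counted in 556 of 1964 tail cells. Its barcode is not among those shared with the tail. Of the 36 Col1a1-marked brain cells 27 also had the Slc1a3 mark. Without the cell with 28 H19 molecules, H19 in Col1a1-marked brain cells fell from 974 to 158 CPM (5 molecules). Dlk1 there fell from 207 to 63.3 CPM (2 molecules), and the number of the 10 genes highest in that group fell from 7 to 4. The origin of this cell was not tested.

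The libraries were also compared within marks. In Slc1a3-marked cells (408 tail, 4891 brain) H19 was at 18038 and 2.92 CPM, Cdkn1c at 171 and 1.70 CPM (ratio 100.4, 46.9 to 256) and Grb10 at 185 and 2.19 CPM (ratio 84.5, 42.9 to 190). Mest (ratio 7.70, 4.402 to 13.5) and Ndn (ratio 5.08, 4.10 to 6.28) were also called, but with TMM scaling those 2 calls were lost and 3 of the 5 remained. The 5 of 8 genes stand beside 5.15% of 8739 genes, and 0 of 8 were called in the brain, beside 4.77%. Meg3 was 3.25-fold lower in the tail (1.87 to 6.17). The intervals for Plagl1 (0.802 to 2.54) and Dlk1 (0.052 to 1.76) contained equality, Dlk1 having 2 tail and 32 brain molecules. Peg3 was 2.35 times (1.94 to 2.84) as high in the tail and was not called. Igf2 had 36 and 0 molecules, at least 86.1-fold higher in the tail, and like Dlk1 had too few for a call. The mark does not hold 1 cell type in both libraries, as the marker counts above show. Stmn2-marked cells carried 5 of 5 other neuronal markers in both libraries, but the cycling markers summed to 648 CPM in those of the brain (174 CPM in the rest of that library) and to 0 in those of the tail (274 CPM in the rest), and the part of this in the values below was not tested. In these cells H19 had 122 molecules in 67 tail cells and 2 in 560 brain cells (ratio 219, 59.3 to 1827). Of the 67 tail cells 71.6% had no H19, and 1 cell held 33 of the 122 molecules. Their H19 level was 955 CPM, against 1736 CPM in tail barcodes that failed the filters, and the part of free RNA was not tested. H19 was the call among 4 genes with enough molecules, beside 1.64% of 2318 genes in the tail. In the brain 0 of 4 were called, beside 2.59%. In the same cells Meg3 was 2.30 times (1.91 to 2.76), Ndn 4.38 times (3.24 to 5.96) and Peg3 1.67 times (1.02 to 2.68) as high in the tail. TMM scaling multiplied the ratios of this comparison by 0.878, with which the interval for Peg3 would contain equality. The other genes had too few molecules for a call there. Cdkn1c had 33 tail and 14 brain molecules (ratio 8.46, 4.403 to 17.1) and Grb10 had 14 and 5 (ratio 10.0, 3.42 to 35.6). Dlk1 had 24 and 0, at least 28.7-fold higher in the tail, and Igf2 had 0 in both. The intervals for Plagl1 (0.257 to 6.73) and Mest (0.959 to 13.4) contained equality. In Tmem212-marked cells, 37 and 53, H19 had 125 tail molecules and 0 brain molecules, which is at least 46.9-fold higher. It was called as 1 of 1, beside 0.845% of 355 genes in the tail. In the brain 0 of 1 was called, beside 2.82%. Of the 37 tail cells 26 also had the Igfbp5 mark, and the top 10% of cells held 67.2% of the 125 molecules. The 10 tail cells with the Tmem212 mark alone had 1 molecule of H19.

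Because Cdkn1c encodes a cell cycle inhibitor, the genes were set against Mki67 and Top2a, markers of dividing cells. In the tail, cells with a molecule of either (251 cells) had Cdkn1c at 520 CPM against 456 CPM, a ratio whose interval (0.994 to 1.30) contained equality, H19 1.14-fold lower (1.104 to 1.17), and Meg3 and Ndn 1.78-fold and 1.84-fold lower. Within Igfbp5-marked cells without the Col1a1 mark Cdkn1c was 1.43 times as high (1.03 to 1.94) in cycling cells. There H19 was 1.03-fold lower (0.997 to 1.07) and Ndn 1.34-fold lower (0.975 to 1.89), with intervals that contained equality. Meg3 was 12.9-fold lower (2.25 to 518), at 1 molecule in cycling and 76 in other cells. In the brain (314 cycling cells) Cdkn1c was 4.50 times (2.69 to 7.27), Grb10 8.95 times (4.85 to 16.3) and Mest 6.66 times (4.05 to 10.7) as high, and Meg3 3.43-fold lower (2.43 to 4.998). Cycling cells were deeper, with medians of 1919 against 1242 molecules in the tail and 1430 against 682 in the brain. The parts of depth and of the mix of cell types in these values were not tested.

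Genes of related function were read beside these 10, each list against the 6.35% of all 11347 genes called higher in tail, the 4.66% called higher in brain and their median log2 ratio of 0.28. Of 13 IGF ligands, receptors and binding proteins, 11 had enough molecules, 6 were called higher in the tail and none in the other direction, with a median log2 ratio of 2.46. They included Igfbp3 (ratio 233, 78.8 to 1134), Igfbp5 (31.9, 30.5 to 33.4), Igf1 (86.7, 28.9 to 426) and Igfbp4 (14.1, 11.8 to 16.8), which encode a growth factor and proteins that bind the IGFs. Of 8 genes of a fetal growth programme 6 were tested and 4 called higher in the tail, beside the same 6.35%, and these were the RNA-binding protein genes Igf2bp1 (17.7, 10.6 to 31.3), Igf2bp2 (107, 59.4 to 216) and Igf2bp3 (62.0, 27.9 to 171) and the chromatin gene Hmga2 (32.8, 17.3 to 69.9). Igf2bp2 was between 110 and 228 CPM in every marked group of the tail, so its level varied less among them than that of any of the 10 genes varied.

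Of 41 other imprinted genes listed, 27 were tested. Called were 3 toward tail, beside 6.35% of all genes, and 1 toward brain, beside 4.66%, with a median log2 ratio of 0.68. With so few genes these counts do not set the list apart from all genes. Those higher in the tail were Dcn (354, 179 to 821), which encodes a matrix proteoglycan and is itself a fibroblast marker, Asb4 (19.004, 8.14 to 54.2) and Igf2r (5.50, 4.23 to 7.19), the receptor that clears IGF2. Rasgrf1 was called higher in the brain, with 78 molecules against 0. Nnat and Gnas were abundant in both libraries, at 2722 and 2053 CPM and at 3816 and 1416 CPM. Of 6 tested genes of imprint maintenance 0 were called in either direction, beside the same shares of all genes, with a median log2 ratio of 0.32, and 6 genes are too few to read that count.

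The genes with the most similar pattern were sought by Pearson's r of log2(CPM + 20) over 11 profiles, 6 marked groups of the tail and 5 of the brain, among 11347 genes. Groups share cells, and profiles of 1 library share its depth and free RNA, so r is a description. The profiles also span both libraries, and the 10 genes were chosen by that contrast, so a high r in part restates it. Xist, for example, lay between 120 and 528 CPM in the tail groups. It was at 118 CPM in Col1a1-marked and 0 in the other brain groups. For H19 the 5 genes were Xist (0.97), Igf2bp2 (0.94), Ifitm2 (0.93), Ndst1 (0.92) and Chchd7 (0.91), and the sexes of the animals, on which Xist depends, are not given in the sources used here. For Igf2 they were Ptges3l, Arsi, Rnf26, Thbs1 and Dap (0.97 to 0.95). For Dlk1 they were Col6a3, Twist1, Col6a1, Col6a2 and Fbn1 (0.99 to 0.96), which include 3 collagen VI genes. For Meg3 they were Runx1t1, Mia3, Wnt5a, Cstf3 and Slc25a4 (0.91 to 0.85). Among the 10 genes r was 0.80 for H19 with Igf2, 0.67 for Dlk1 with Meg3 and -0.11 for H19 with Meg3.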

How the data were processed

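Sox1-GFP+ cells of tail and brain were measured, 1 library each. The deposited tables hold counts of molecules per cell and gene, which the authors made with the BD Rhapsody WTA Analysis Pipeline, version 1.10.1 per the file headers, on GRCm38 with GENCODE vM19, with its recursive correction of molecular identifier errors. The submitters' processing notes also name STAR 2.7.1a, UMI-tools 1.0.1 and featureCounts 1.6.4, and do not say which step made which file. Other columns of reads and uncorrected molecules were not used for levels.

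As in the study, barcodes were kept if their gene number lay above 200 and below 4000 and if less than 40% of molecules were mitochondrial. Molecules were summed per library or marked group and divided by the sum of all molecules (CPM). Levels have exact Poisson, shares Clopper-Pearson and ratios conditional binomial intervals, all exact and at 95%. Where the count was 0, the level was given a floor of 3 molecules per library or group. Call rules (50 molecules, 4-fold) were the same for all genes, and were tried on simulated counts with counting error alone. Molecules gathered in few cells were not simulated, so that trial does not cover them. Groups of at least 20 cells were used, so Tmem212-marked against Igfbp5-marked tail cells (11 cells with the first mark alone) was not compared.

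The named genes were the 10 genes, at most 4 per list and direction by the interval bound nearest to equality, the 5 most similar genes of H19, Igf2, Dlk1 and Meg3, and markers. Genes named from the 8 leading ones per direction of the H19 split, not all of which are reported here, and the genes of the brain cell with the most H19 were chosen after their values were seen. The 10 genes and all lists were chosen with earlier results of these data known. Doublets were called with Scrublet in scanpy 1.11.5 at an expected rate of 0.05 (5 tail and 76 brain cells) and left in. Alternatives used TMM from edgeR 4.0.16 in R 4.3.3, another mark minimum, another molecule minimum, ratios without intervals, and cells left out. Python 3.11.15, numpy 2.4.6, scipy 1.17.1 and pandas 2.3.3 were used. Annotation came from GENCODE vM21 and sequences from RefSeq on GRCm38.p6.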

Additional observations from a re-analysis of the deposited data

How the results depend on the processing

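In Stmn2-marked against Igfbp5-marked tail cells Dlk1, which was not called, turned from 3.20-fold lower to 9.83 times as high without Col1a1-marked cells. No gene called by its tail to brain ratio reversed. Over the 9 settings of each tail to brain ratio all 10 genes stayed higher in the tail, with H19 from 1290 to 24543, Dlk1 from 9.33 (without Col1a1-marked and Krt5-marked cells) to 742, Plagl1 from 2.84 to 22.0, Mest from 5.77 to 291, Cdkn1c from 16.1 to 764 and Meg3 from 1.26 to 2.16. The highest values came mostly from leaving out the 1% of cells with the most of the gene, which takes out most brain molecules. Of 135 counts under alternatives 89 stayed within 1.5 times of the value given and 46 moved by more. Under the narrower bound of the counting interval, 45 of 140 levels by library, 75 of 440 levels in marked cells, 34 of 90 ratios and 35 of 40 shares of cells lay outside it. The depth limits all values under about 3 molecules, and with 1 library per group the spread between animals is unknown. No paired analysis was possible because each group is 1 library and no test was made.

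With at least 200 molecules required, genes called numbered 301 higher in tail over all cells, 4 in tail and 32 in brain for Stmn2-marked cells, 186 in tail for Slc1a3-marked cells, 1 in tail and 1 in brain for Tmem212-marked cells, 39 and 130 for Col1a1-marked against Igfbp5-marked, 13 for Krt5-marked and 27 for Stmn2-marked tail cells, and 4 and 4 for H19-high against H19-free cells. Of the 10 genes 0, 2, 0 and 1 were then called higher in the tail in Stmn2-marked, Slc1a3-marked and Tmem212-marked cells and in H19-high cells. With the ratio itself beyond 4-fold, the counts were 59 and 141 (Stmn2-marked, tail and brain), 681 and 762 (Slc1a3-marked), 8 and 23 (Tmem212-marked), 554 (higher in Igfbp5-marked than Col1a1-marked), 111 and 544 (Krt5-marked against Igfbp5-marked), 221 and 285 (Stmn2-marked against Igfbp5-marked) and 33 and 48 (H19-high and H19-free), and of the 10 genes 2 were higher in tail Stmn2-marked cells, 8 and 2 higher in Igfbp5-marked than Krt5-marked and Stmn2-marked cells, and 1 higher in H19-free cells. With TMM the counts were 280 and 648 for Slc1a3-marked cells, with 3 of the 10 genes, and 155 higher in Igfbp5-marked than Stmn2-marked cells. Chosen after seeing the data, leaving out Col1a1-marked cells left 1 of the 10 genes lower in Krt5-marked cells, and leaving out the brain cell with the most H19 left 4 highest in Col1a1-marked brain cells, as did a mark of 1 molecule, at 4. Of the 5 most similar genes, Spearman's rho kept 2 for H19, 0 for Igf2, 0 for Dlk1 and 2 for Meg3, and a pseudocount of 5 kept 3 for Igf2 and 3 for Dlk1.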
